A study of Mus musculus with 4 samples.

Results

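The genes described here are 8 genes of apoptotic cell clearance. They are the receptor tyrosine kinases Axl and Mertk, the phosphatidylserine receptor Timd4, the bridging proteins Gas6, Pros1 and Mfge8, and the cytoplasmic proteins Elmo1 and Dock2. They were chosen by symbol, and all 8 were found among the 32285 genes of the deposited count tables. Their counts were followed across 4 single-cell libraries and across cell classes set by marker genes.

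The libraries held CD45+ cells sorted from the brains of wild-type C57Bl/6 mice on day 3. Aged CA was made from mice of 18 to 20 months that went through cardiac arrest (CA) brought on by potassium chloride and resuscitation, and aged sham from mice of the same age that had the surgery alone. Young CA and young sham were the same treatments in mice of 3 to 6 months. Brains were perfused, dissociated mechanically and enriched for immune cells on Percoll before the sort, per the labels' protocols. Each library was a pool of 3 mice that cannot be told apart, so every group was 1 sample. No difference between groups therefore has a replicate check and no p-value is given. The intervals are 95% intervals of the counting error alone. Each combination of age and treatment was 1 library, so the effects of age, treatment and library cannot be told apart.

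Dying cells are recognised mainly by phosphatidylserine, a lipid that moves to the outer face of the membrane. Tyro3, Axl and Mertk, the TAM receptors, do not bind it themselves: Gas6 and protein S, the product of Pros1, bind the lipid at their Gla domain and the receptor at their other end. Mfge8 bridges the same lipid to alpha-v integrins, whereas Tim-4, the product of Timd4, binds it directly. Elmo1 works with proteins of the Dock family, which switch on the GTPase Rac and so drive the actin movement of engulfment, and Dock2 is the family member typical of blood cells. In the resting brain Mertk is a well-known receptor of microglia, and Axl is known as the TAM receptor that is induced in inflammation.

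Axl lies on chromosome 7 (25757273 to 25788705, minus strand), Mertk on chromosome 2 (128698956 to 128802894, plus strand) and Timd4 on chromosome 11 (46810800 to 46844332, plus strand). Gas6 lies on chromosome 8 (13465374 to 13494490, minus strand), Pros1 on chromosome 16 (62854307 to 62929346, plus strand) and Mfge8 on chromosome 7 (79133768 to 79149060, minus strand). Elmo1 lies on chromosome 13 (20090596 to 20608353, plus strand) and Dock2 on chromosome 11 (34226815 to 34783892, minus strand). These positions are those of GENCODE M21 on GRCm38, the assembly behind mm10, and all 8 genes are annotated as protein coding. Elmo1, Dock2 and Mertk span 518, 557 and 104 kb, and the other members 15.3 to 75.0 kb. Elmo1 holds the sense intronic gene Gm47664 and the antisense gene Gm32036, with 13704 and 25667 UMIs in kept cells. Dock2 overlaps Fam196b on the other strand, with 19675 UMIs, and Mertk overlaps the antisense gene Gm14011, with 1443 UMIs. How reads of these overlaps were shared out between the genes is not known here.

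The promoters of the receptors are shown because Axl and Mertk moved in opposite directions and Timd4 was almost absent from microglia. Each line gives the 250 bases before the transcription start, 5′ to 3′ on the strand of the gene, from RefSeq on GRCm38.p6. Capitals mark GAGGAA, the core bound by PU.1, a master regulator of macrophages, or GAAANNGAA, a part of the interferon-stimulated response element, on either strand.
Axl, chr7:25788734-25788983, minus strand: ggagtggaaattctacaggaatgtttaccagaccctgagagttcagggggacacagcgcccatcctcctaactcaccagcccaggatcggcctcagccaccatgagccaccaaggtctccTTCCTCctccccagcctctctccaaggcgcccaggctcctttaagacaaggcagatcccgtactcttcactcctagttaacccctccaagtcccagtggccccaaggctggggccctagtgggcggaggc
Mertk, chr2:128698665-128698914, plus strand: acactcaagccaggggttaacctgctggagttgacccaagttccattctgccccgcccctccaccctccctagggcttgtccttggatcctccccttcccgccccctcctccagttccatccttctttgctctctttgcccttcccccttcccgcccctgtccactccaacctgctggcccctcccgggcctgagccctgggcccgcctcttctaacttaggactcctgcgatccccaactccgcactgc
Timd4, chr11:46810549-46810798, plus strand: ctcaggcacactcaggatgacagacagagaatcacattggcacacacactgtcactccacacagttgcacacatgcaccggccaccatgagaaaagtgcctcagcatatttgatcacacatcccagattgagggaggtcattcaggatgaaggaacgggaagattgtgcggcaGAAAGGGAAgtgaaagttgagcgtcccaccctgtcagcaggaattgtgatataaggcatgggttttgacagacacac
The Axl sequence held GAGGAA on the other strand 130 bases before the start, the Mertk sequence held neither motif, and the Timd4 sequence held GAAANNGAA 77 bases before the start. The shares over all 32851 mouse promoter windows, which run from 250 bases before to 50 after the start, were 23.3% for GAGGAA and 7.13% for GAAANNGAA. TTCNNNGAA, the palindrome bound by STAT proteins, was in 7.02% of all promoters and, among the members, in that of Pros1 and in that of the inner start of Elmo1, where it shared bases with GAAANNGAA. Among the other members GAGGAA was in the promoters of Mfge8 and Dock2, which moved in opposite directions after CA in microglia. A match describes letters and not a bound site.

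After cells with over 10% mitochondrial UMIs were left out, 5888 aged CA, 7538 aged sham, 10131 young CA and 8730 young sham cells remained, with medians of 10432.5, 3130, 9857 and 6368 UMIs. Cells took the class whose markers they showed most fully, and 85.7%, 77.0%, 91.8% and 94.2% of them were microglia in the same order. Aged sham stood apart. It was the shallowest, 15.8% of its cells carried markers of several classes (3.38% to 4.05% in the other libraries), and haemoglobin transcripts made up 29.8 CPM of its microglia against 1.15 to 2.89 CPM elsewhere. Libraries shared 15 to 32 barcodes per pair. All 12 microglial markers were seen in the microglia of every library, and their summed level was 10909 CPM in aged CA against 21135 CPM in aged sham, and 15488 CPM in young CA against 25269 CPM in young sham. CPM is the counts-per-million scale, set by all UMIs of the class in a library, and a gene was called where its CPM ratio was 2-fold or more, among genes with a mean of at least 10 CPM and 20 UMIs over the libraries compared.

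Axl was the 1 receptor among the members that was higher after CA in microglia, 2-fold or more in young mice and less than that in aged mice. It stood at 28.4 CPM in aged CA, 15.3 CPM in aged sham, 43.3 CPM in young CA and 6.85 CPM in young sham microglia, from 1575, 510, 4342 and 439 UMIs, and no pair of intervals overlapped. Young CA was thus the highest library and young sham the lowest. The ratio was 1.85 in aged CA against aged sham (interval 1.68 to 2.05), under the 2-fold limit, and 6.32 in young CA against young sham (5.73 to 6.99). On the log2 scale the CA response was 1.77 smaller in aged than in young mice, and this difference was not tested. Age had opposite signs in the sham and CA libraries: the ratio was 2.24 in aged sham against young sham (1.97 to 2.55) and 0.657 in aged CA against young CA (0.619 to 0.696).

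T cells, which should lack Axl, were taken to give the level of free RNA. They had 4.82 CPM in aged CA, 5.20 CPM in aged sham, 5.17 CPM in young CA and 12.5 CPM in young sham, from 5, 7, 1 and 5 UMIs. The young sham value had an interval of 4.05 to 29.1 CPM and covered that of young sham microglia. By mean level alone, young sham microglia therefore cannot be told from background, and both Axl ratios against young sham have that level as their base. The 439 Axl UMIs of young sham microglia lay in 232 of 8220 cells, with 11 in 1 cell and 50% of them in 47 cells. With each cell thinned to 2000 UMIs, 4.28% of 4856 aged CA, 2.40% of 3963 aged sham, 6.53% of 8777 young CA and 1.10% of 7471 young sham microglia had an Axl UMI. The shares were 16.4%, 4.86%, 22.8% and 2.82% before thinning, at median depths of 10492, 3428, 9579.5 and 6121 UMIs. Thinned T cells with an Axl UMI numbered 0 of 112 in aged CA, which allows a share of up to 2.68%, 2 of 141 in aged sham, 0 of 23 in young CA, which allows up to 13.04%, above the share in young CA microglia, and 1 of 29 in young sham, at median depths of 8816, 8659, 8531 and 9708 UMIs before thinning.

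Markers of neighbouring classes moved with Axl in some libraries. The 8 markers of border-associated macrophages summed to 11.8 CPM in aged CA, 41.0 CPM in aged sham, 26.4 CPM in young CA and 26.7 CPM in young sham microglia, and the 8 of monocytes to 18.8, 52.3, 57.9 and 21.3 CPM, with every marker seen in each library. In microglia that held no UMI of either list, the Axl ratio was 2.46 in aged CA against aged sham and 8.18 in young CA against young sham. These subsets held 4338, 4814, 6547 and 7015 cells of aged CA, aged sham, young CA and young sham, with medians of 9945.5, 3478.5, 8165 and 5552 UMIs, and were chosen after seeing the data. The part of the markers in the Axl values of all microglia was not tested. Most microglia with an Axl UMI also held Mertk. Among thinned microglia, 81.3% of 208 cells with an Axl UMI and 79.1% of the 4648 others had a Mertk UMI in aged CA, 77.9% of 95 and 85.9% of 3868 in aged sham, 84.1% of 573 and 89.5% of 8204 in young CA, and 79.3% of 82 and 94.2% of 7389 in young sham.

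Mertk, the receptor that resting microglia use for uptake of dying cells, was lower after CA at both ages but did not reach 2-fold. It stood at 935 CPM in aged CA, 1347 CPM in aged sham, 1411 CPM in young CA and 1781 CPM in young sham microglia, so aged CA was the lowest library and young sham the highest. The ratio was 0.695 in aged CA against aged sham (0.686 to 0.703) and 0.792 in young CA against young sham (0.786 to 0.799). It was 0.756 in aged sham against young sham (0.748 to 0.765) and 0.663 in aged CA against young CA (0.656 to 0.669). In the sham libraries 3.69% of the eligible genes had a lower age ratio than Mertk. Most microglia held Mertk: 79.2%, 85.7%, 89.1% and 94.0% of thinned cells had a UMI in aged CA, aged sham, young CA and young sham, against 7.14%, 6.38%, 8.70% and 0% of T cells (0 of 29, which allows up to 10.3%). Before thinning the microglial shares were 95.3%, 83.3%, 96.3% and 95.05%. T cells held 41.4, 26.0, 62.1 and 17.5 CPM of Mertk in the same order.

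Timd4 was almost absent from microglia, with 0 UMIs in aged CA, 1 in aged sham, 13 in young CA and 1 in young sham. Of the 13 UMIs in young CA, 11 lay in 1 cell. It was below the limit for a ratio in every microglial comparison. Tyro3, the remaining TAM receptor, had 20 UMIs in aged CA, 43 in aged sham, 29 in young CA and 30 in young sham microglia and was below the limit as well.

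**Figure D1:**
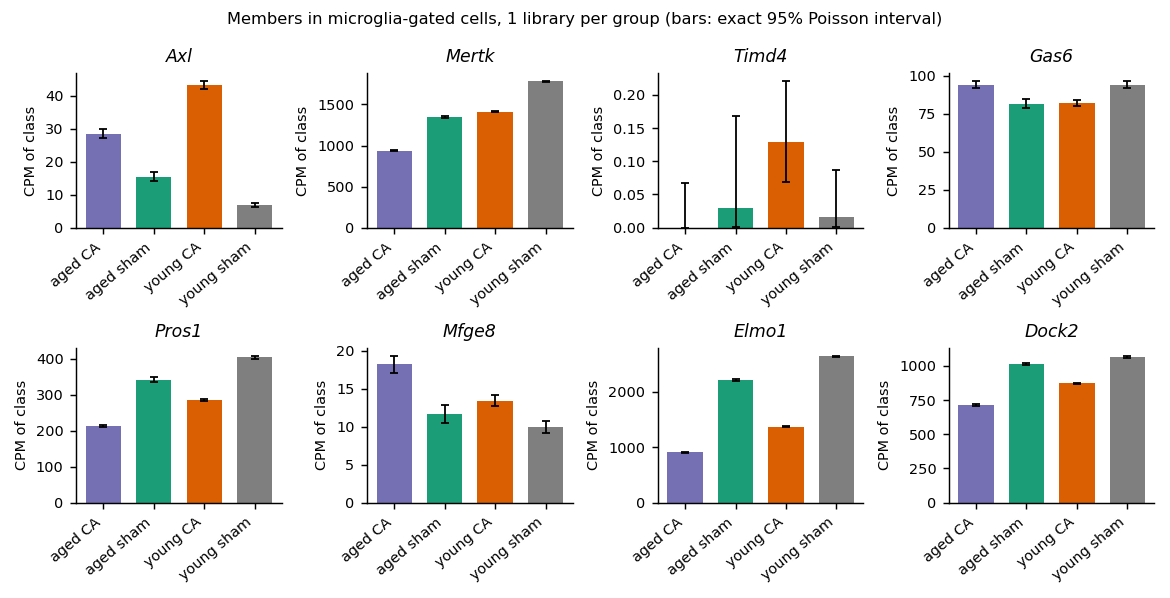
CPM of the 8 genes in microglia-gated cells of each library, on axes that start at 0 and differ between panels; error bars are exact 95% Poisson intervals. Axl is lowest in young sham (6.85 CPM) and highest in young CA (43.3 CPM), Elmo1 is lower in each CA library than in its sham, and Timd4 does not pass 0.130 CPM.

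The bridging proteins moved little and not together. Gas6 stood at 94.1 CPM in aged CA, 81.5 CPM in aged sham, 82.0 CPM in young CA and 94.1 CPM in young sham microglia. Its ratio was 1.15 in aged CA against aged sham (1.10 to 1.21) and 0.872 in young CA against young sham (0.843 to 0.902), so the directions were opposite at the ages compared while both were small. Age gave 0.866 in aged sham against young sham (0.828 to 0.907) and 1.15 in aged CA against young CA (1.11 to 1.19). T cells held 1.93 CPM of Gas6 in aged CA and 7.43 CPM in aged sham, and had no UMI in young CA and young sham. Pros1 stood at 213 CPM in aged CA, 342 CPM in aged sham, 286 CPM in young CA and 404 CPM in young sham microglia. It was lower after CA at both ages, at a ratio of 0.621 in aged mice (0.606 to 0.638) and 0.708 in young mice (0.696 to 0.720). B cells, which should lack Pros1, held 3.36 CPM in aged CA and 2.69 CPM in aged sham, from 1 UMI each. Fewer than 20 young B cells were found per library.

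Mfge8 was low. It stood at 18.2 CPM in aged CA, 11.6 CPM in aged sham, 13.4 CPM in young CA and 9.97 CPM in young sham microglia, at a ratio of 1.57 in aged CA against aged sham (1.39 to 1.77) and 1.35 in young CA against young sham (1.23 to 1.48). T cells held 8.67 CPM in aged CA (3.97 to 16.5), 7.43 CPM in aged sham (3.57 to 13.7), 5.17 CPM in young CA (0.131 to 28.8) and 4.995 CPM in young sham (0.605 to 18.0). The microglial value lay above that interval in aged CA and inside it in the other 3 libraries, where Mfge8 cannot be told from the T cells. The T cell values rest on 1 UMI in young CA and 2 in young sham, so those intervals are wide. Neurons held 1.40 CPM in aged CA, 2.15 CPM in aged sham, 2.50 CPM in young CA and 1.26 CPM in young sham, from 6, 7, 5 and 4 UMIs.

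Elmo1, the scaffold of the Rac-activating complex, had the lowest CA ratio of the 7 eligible members in microglia at both ages. It stood at 910 CPM in aged CA, 2215 CPM in aged sham, 1375 CPM in young CA and 2647 CPM in young sham microglia. It was 2.43 times lower in aged CA than in aged sham (2.41 to 2.46) and 1.93 times lower in young CA than in young sham (1.91 to 1.94), so the call was reached in aged mice and missed narrowly in young mice. After thinning, 29.0% of aged CA, 68.3% of aged sham, 48.6% of young CA and 82.2% of young sham microglia held at least 3 Elmo1 UMIs. Dock2, an activator of Rac, stood at 712 CPM in aged CA, 1015 CPM in aged sham, 873 CPM in young CA and 1069 CPM in young sham. Its ratio was 0.702 in aged CA against aged sham (0.692 to 0.712) and 0.817 in young CA against young sham (0.809 to 0.825). Neurons, which should lack Dock2, held 16.8, 12.6, 17.0 and 7.58 CPM in aged CA, aged sham, young CA and young sham.

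Other measures moved with the lower levels of Mertk, Pros1, Elmo1 and Dock2. The microglial markers were lower as a list, 12 of 12 in aged CA against aged sham with a median log2 ratio of -1.29 and 12 of 12 in young CA against young sham with a median of -0.84. Genes that span at least 100 kb were also lower on balance: 68.9% of 1378 such genes were below 0 in aged CA against aged sham, with a median log2 ratio of -0.29 against 0.10 for shorter genes, and 81.3% of 1270 in young CA against young sham, with -0.31 against -0.02. The part of either in the members' values was not tested.

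Read over all members, 7 of 8 passed the limit on low values in each microglial comparison and Timd4 did not. In aged CA against aged sham, 0 of the 7 were 2-fold higher and 1, Elmo1, was 2-fold lower, where 5.77% of all 9271 eligible genes were higher and 8.01% lower. The members' median log2 ratio was -0.51 and that of all eligible genes 0.05. In young CA against young sham, 1, Axl, was higher and 0 lower, where 5.52% of 9130 genes were higher and 2.51% lower, and the medians were -0.29 and -0.06. In aged sham against young sham, 1, Axl, was higher and 0 lower, where 2.47% of 9230 genes were higher and 0.163% lower, with medians of -0.21 and -0.06. Its mean over those libraries was close to the limit of 10 CPM. In aged CA against young CA, 0 were called in either direction, where 1.79% of 9067 genes were higher and 2.57% lower, with medians of -0.43 and 0.03. Comparisons that share a library are not independent of each other.

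**Figure D2:**
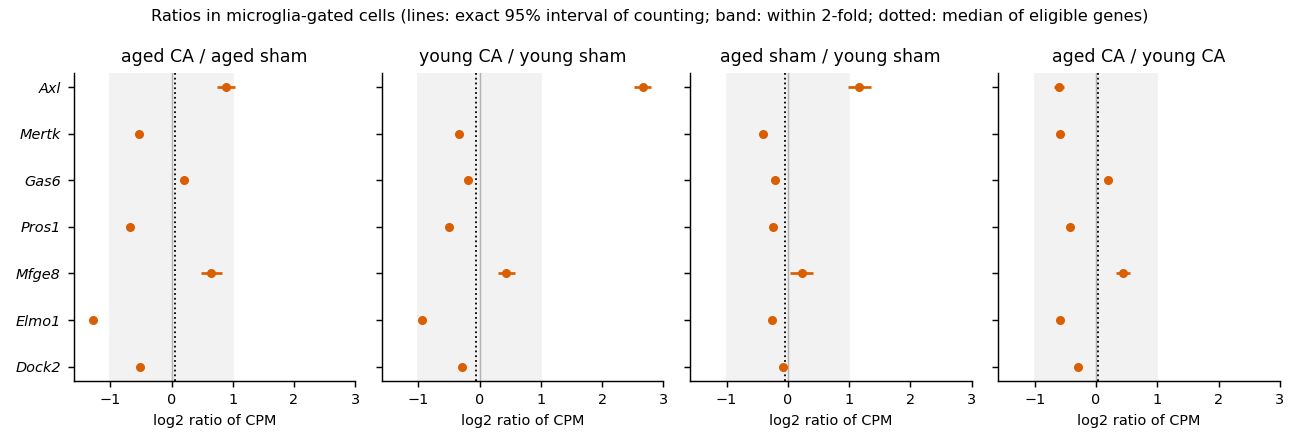
Log2 ratios of CPM in microglia-gated cells for the 7 genes above the limit on low values, with 1 panel per comparison; lines are exact 95% counting intervals, the grey band marks less than 2-fold and the dotted line the median of all eligible genes. Axl lies outside the band in young CA over young sham and in aged sham over young sham, and Elmo1 in aged CA over aged sham.

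Border-associated macrophages, which line vessels and meninges, were few. The gate found 45 in aged CA, 9 in aged sham, 34 in young CA and 33 in young sham, and all 8 of their markers were seen in each library. Among gated classes of at least 20 cells they had the highest Timd4, a known receptor of resident macrophages of body cavities and borders. Timd4 stood at 10.7 CPM in aged CA, 121 CPM in aged sham, 42.4 CPM in young CA and 164 CPM in young sham macrophages, from 4, 9, 11 and 44 UMIs. It was held by 4 of 45, 5 of 9, 7 of 34 and 16 of 33 cells in the same order, and 19 of the 44 young sham UMIs lay in 1 cell. The level was 3.86 times lower in young CA than in young sham (1.96 to 8.29). Among 4683 eligible genes of that comparison, 6.77% were 2-fold higher and 6.09% lower, and Timd4 was the only member called.

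Wider class rules gave the same direction for Timd4. A cell could also be given its best class with any runner-up below it, the top class rule, or be placed by the whole expression profile of such cells, the profile rule. By the top class rule Timd4 stood at 9.41 CPM in 60 aged CA, 87.6 CPM in 30 aged sham, 22.2 CPM in 60 young CA and 81.4 CPM in 84 young sham macrophages. By the profile rule it stood at 2.40 CPM in 209 aged CA, 36.2 CPM in 143 aged sham, 8.94 CPM in 170 young CA and 48.4 CPM in 142 young sham macrophages. Both CA libraries were below both shams by each rule, and the aged ratio was 0.107 (0.0324 to 0.282) and 0.0664 (0.0204 to 0.169). By the profile rule Timd4 was seen in 5 of 209 aged CA, 20 of 143 aged sham, 10 of 170 young CA and 34 of 142 young sham macrophages. Over all kept cells Timd4 had 9 UMIs in aged CA, 39 in aged sham, 107 in young CA and 77 in young sham. These made 0.132, 0.886, 0.940 and 1.07 CPM of the library. The young libraries thus differed little in total, and the lower young CA level holds for the macrophage class only. Of these UMIs, 55.6% in aged CA, 74.4% in aged sham, 57.0% in young CA and 41.6% in young sham lay in cells with markers of several classes. The gate set those cells aside. Whether fewer cells of a Timd4 type or less Timd4 per cell was sampled cannot be told apart, since the class is small and its mix may differ between libraries.

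Gas6 was also highest in this class. It stood at 281 CPM in aged CA, 661 CPM in aged sham, 505 CPM in young CA and 770 CPM in young sham macrophages. The ratio was 0.656 in young CA against young sham (0.523 to 0.820). It was 0.553 by the top class rule (0.468 to 0.653) and 0.456 by the profile rule (0.397 to 0.523), and in aged CA against aged sham 0.533 (0.421 to 0.674) and 0.509 (0.426 to 0.607). Gas6 in macrophages was thus lower in CA at both ages by these rules, as it was, by less, in young but not in aged microglia. By the gate the macrophages' own markers summed to 7735 CPM in aged CA against 12472 CPM in aged sham and to 12119 CPM in young CA against 13228 CPM in young sham, and their microglial markers to 2297 against 4342 CPM and to 3525 against 5136 CPM. The part of these in the Gas6 and Timd4 values was not tested. For aged CA against young CA the Gas6 ratio was 0.556 (0.426 to 0.725).

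Axl and Mertk followed no common pattern in macrophages. Axl stood at 177 CPM in aged CA, 80.9 CPM in aged sham, 84.9 CPM in young CA and 67.0 CPM in young sham, from 66, 6, 22 and 18 UMIs. The ratio of aged CA to young CA was 2.08 (1.27 to 3.54) by the gate but 1.40 (1.02 to 1.92) by the top class rule and 0.832 (0.696 to 0.996) by the profile rule, so its direction depends on how the class is drawn. Mertk stood at 760 CPM in aged CA, 728 CPM in aged sham, 548 CPM in young CA and 633 CPM in young sham. In young CA against young sham the Mertk ratio was 0.866 by the gate (0.688 to 1.09), 1.02 by the top class rule (0.881 to 1.17) and 1.45 by the profile rule (1.32 to 1.60), so its direction too depends on the rule. In aged CA against aged sham it was 1.74 by the top class rule (1.43 to 2.13) and 2.14 by the profile rule (1.90 to 2.41). Pros1 was 2.33 times lower in aged CA than in young CA by the gate (1.44 to 3.85), at 77.6 CPM against 181 CPM. Its ratio was 0.414 by the top class rule (0.274 to 0.613) and 0.576 by the profile rule (0.479 to 0.693), the latter under 2-fold. In that comparison 1 member was higher, Axl, and 1 lower, Pros1, where 7.23% of 5216 eligible genes were higher and 9.45% lower. The macrophages' own markers summed to 7735 CPM in aged CA against 12119 CPM in young CA, and their microglial markers to 2297 CPM against 3525 CPM, and the part of these in the differences was not tested.

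**Figure D3:**
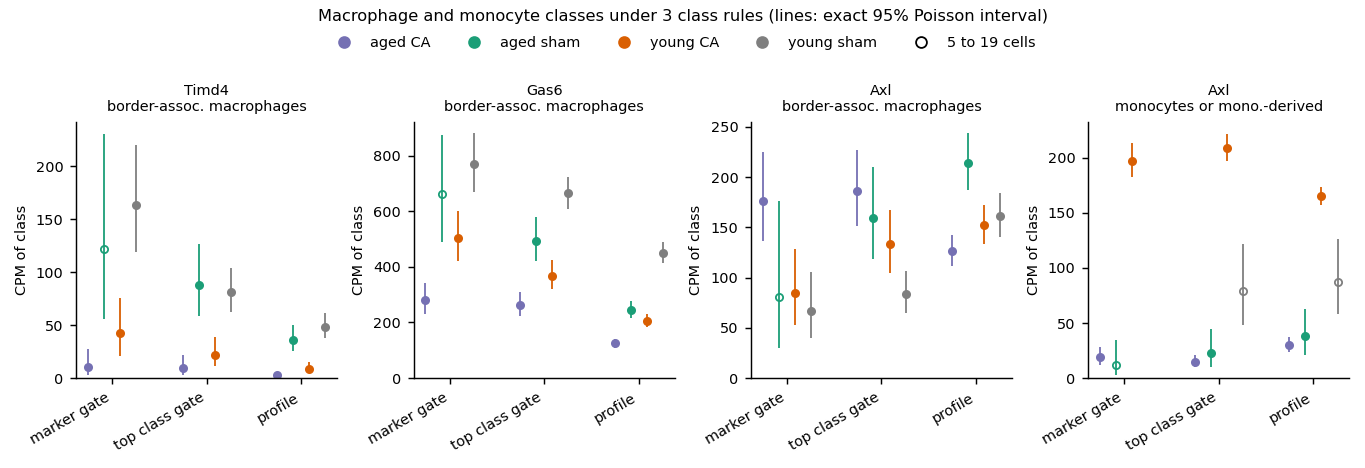
CPM of Timd4, Gas6 and Axl in border-associated macrophages and of Axl in monocytes or monocyte-derived macrophages under each of the 3 class rules; lines are exact 95% Poisson intervals, and open points rest on 5 to 19 cells. Timd4 and Gas6 are lower in each CA library than in its sham by every rule, Axl in macrophages changes order with the rule, and Axl in monocytes is highest in young CA by every rule.

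Monocytes or monocyte-derived macrophages, cells that come from blood, numbered 46 in aged CA, 15 in aged sham, 175 in young CA and 4 in young sham, so only the CA libraries were compared. Of the 5 members above the limit on low values there, Axl differed most. It stood at 19.1 CPM in aged CA (12.3 to 28.5) against 198 CPM in young CA (183 to 213), from 24 and 659 UMIs, and was 10.3 times lower in aged CA (6.88 to 16.2). An Axl UMI was seen in 9 of 46 aged CA and 112 of 175 young CA cells, at median depths of 26286.5 and 20036 UMIs, and after thinning in 8.70% of 46 and 31.1% of 167 cells. The ratio was 0.0710 by the top class rule (0.0473 to 0.102) and 0.180 by the profile rule (0.142 to 0.226). Mertk stood at 119 CPM in aged CA and 118 CPM in young CA, at a ratio of 1.01 (0.831 to 1.22). Pros1 was 2.13 times lower in aged CA by the gate (1.22 to 3.97), at 11.95 CPM against 25.5 CPM. By the profile rule its ratio was 0.546 (0.442 to 0.668), under 2-fold. Among these 5 members 2 were lower, Axl and Pros1, and 0 higher, where 6.38% of 7761 eligible genes were higher and 10.4% lower.

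The monocytes of the CA libraries were also unlike in their markers. Of their own 8 markers Ly6c2 stood at 143 CPM in aged CA against 1984 CPM in young CA and Plac8 at 987 CPM against 2702 CPM, and microglial markers summed to 778 CPM against 1882 CPM. Neutrophil markers differed as well, with a sum of 4165 CPM in aged CA against 323 CPM in young CA. In cells with under 2 of the 10 neutrophil markers seen, 6 in aged CA and 54 in young CA, the lists summed to 102 and 123 CPM and Axl stood at 27.7 CPM against 292 CPM, a ratio of 0.0951 (0.0195 to 0.281). That value rests on 3 aged CA UMIs and on cells picked after seeing the data. The part of these marker differences in the Axl values was not tested. In the same cells Mertk had a ratio of 3.69 (2.49 to 5.38) and Pros1 one of 1.97 (0.482 to 6.03), so the direction of Pros1 was not kept. All 22 Timd4 UMIs of young CA monocytes lay in 1 cell. Dendritic cells were few and depended on the rule. The gate found 2 in young CA and 1 in aged CA, and the top class rule 24 and 7. By the profile rule 13 of 109 young CA dendritic cells held 84 Timd4 UMIs, and 1 of 21 aged CA dendritic cells held 4. Under that rule Timd4 was thus higher in dendritic cells than in border-associated macrophages in both CA libraries, at 10.48 CPM against 2.40 CPM in aged CA, with intervals that overlap, and at 42.7 CPM against 8.94 CPM in young CA, with intervals that do not.

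Across the other classes the members differed in where they were found. Mertk and Pros1 were highest in microglia, then in border-associated macrophages, with the rest at 119 CPM or less for Mertk and 27.0 CPM or less for Pros1 in classes of at least 20 cells. The 60 aged sham erythroid cells, which carried 352 CPM of Mertk, 153 CPM of Pros1 and 107 CPM of Gas6, are left out of these orders. Their Gas6 was above the 81.5 CPM of aged sham microglia. Gas6 was highest in border-associated macrophages and next in microglia. Neurons held 46.5 CPM of Gas6 in aged CA, 32.2 CPM in aged sham, 36.0 CPM in young CA and 28.8 CPM in young sham, above the T cells of each library. Dock2 was present in every leukocyte class. In aged sham it stood at 1234 CPM in T cells (1176 to 1295), 1063 CPM in B cells (961 to 1174), 1015 CPM in microglia and 866 CPM in neutrophils (765 to 976), and B cells and microglia did not differ beyond counting error. In aged CA the order was T cells with 804 CPM, microglia with 712 CPM, B cells with 607 CPM and neutrophils with 484 CPM. Border-associated macrophages followed with 412 CPM and monocytes with 285 CPM.

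Elmo1 had its highest level in aged CA oligodendrocytes, the myelin-forming cells, which were few among the sorted cells. They held 5948 CPM in 28 aged CA cells (5597 to 6315), 1477 CPM in 38 aged sham cells (1333 to 1633), 3383 CPM in 8 young CA cells and 1102 CPM in 12 young sham cells. The aged CA level was 4.03 times that of aged sham (3.58 to 4.54), the opposite of the direction in microglia of the same libraries, and 28 of 28 and 37 of 38 cells held a UMI. By the top class rule the ratio was 3.64 and by the profile rule 2.81. Elmo1 was the only member above the limit on low values there, and it was higher, where 20% of 3675 eligible genes were higher and 12.9% lower. The 7 oligodendrocyte markers were all lower in aged CA, with a sum of 6303 CPM against 10801 CPM in aged sham.

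**Figure D4:**
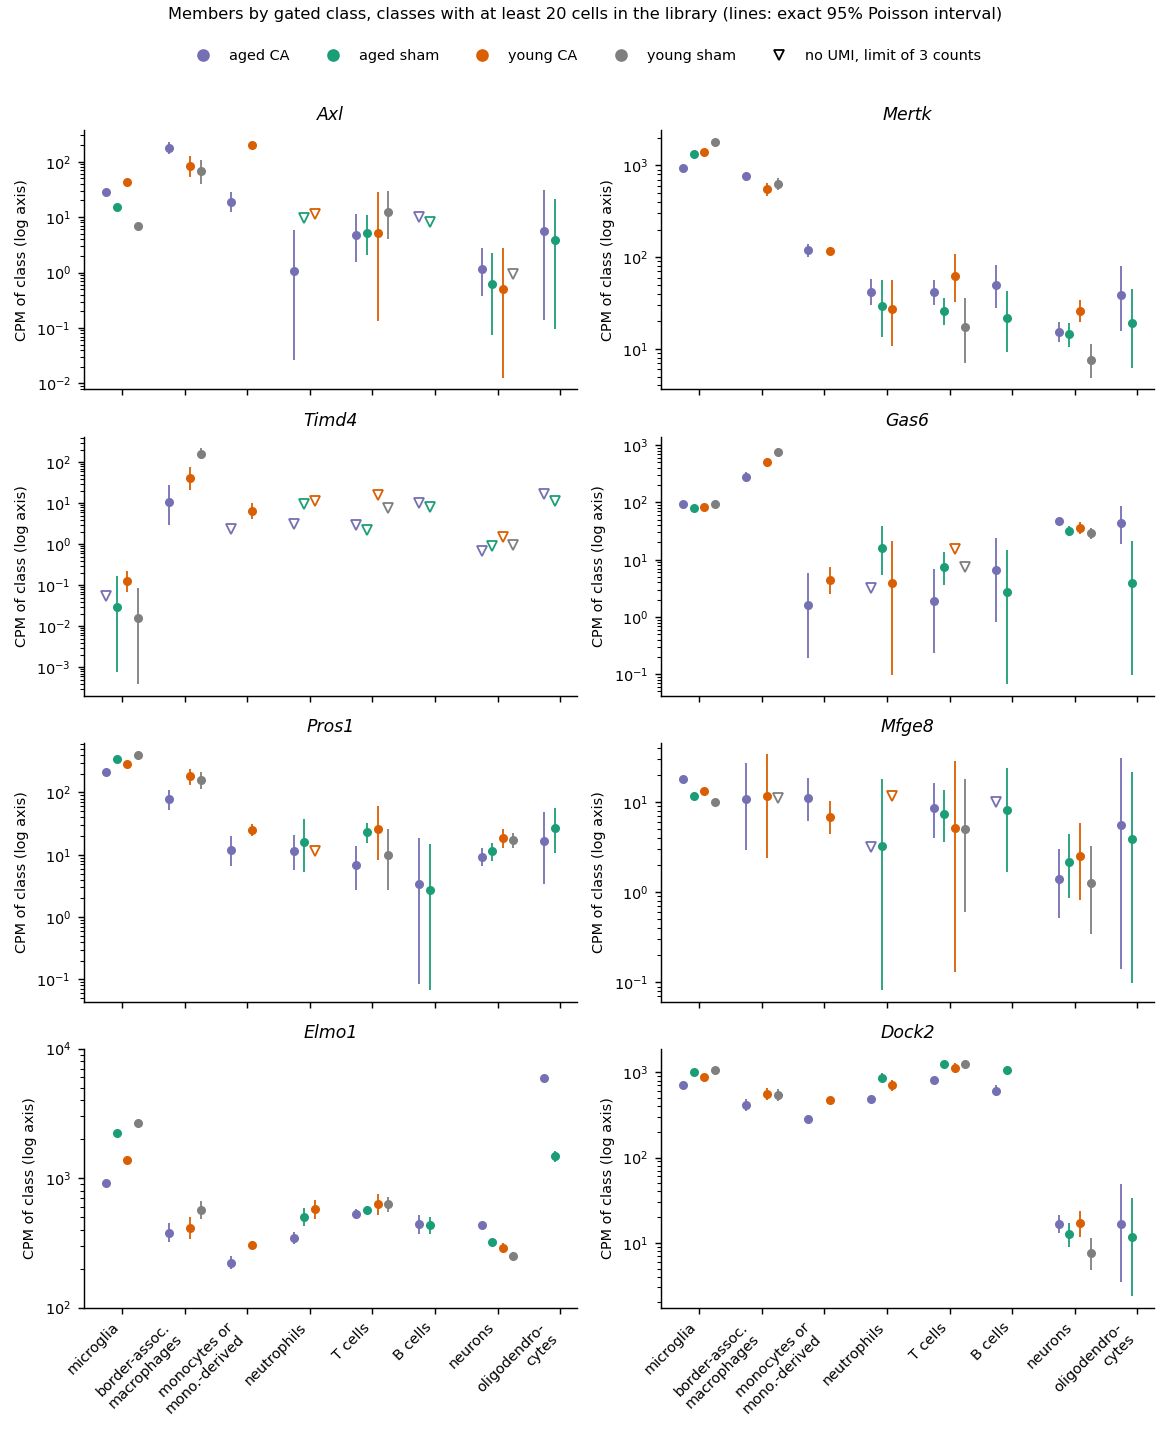
CPM of each gene, on log axes that differ between panels, in gated classes with at least 20 cells in the library; lines are exact 95% Poisson intervals and open triangles mark the limit of 3 counts where no UMI was seen. Timd4 is highest in border-associated macrophages, Gas6 likewise, Dock2 is low in neurons and oligodendrocytes, and Elmo1 is highest in aged CA oligodendrocytes (5948 CPM). Aged sham erythroid cells are not drawn.

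Other genes of clearance were read from a list of 67 in 6 roles. In microglia, 4 of 48 above the limit on low values (8.33%) were 2-fold higher and 2 (4.17%) lower in aged CA against aged sham, and 6 of 48 (12.5%) higher and 0 lower in young CA against young sham. The shares over all eligible genes were 5.77% higher and 8.01% lower in aged mice, and 5.52% higher and 2.51% lower in young mice. The list's median log2 ratio was 0.21 in aged and 0.11 in young mice, beside 0.05 and -0.06 for all eligible genes. Ligands and opsonins were higher on balance: 5 of 6 were above 0 in aged CA against aged sham and 6 of 6 in young CA against young sham, with medians of 0.70 and 0.70. Of all eligible genes, 53.7% were above 0 in aged and 44.1% in young mice. Lgals3, galectin-3, stood at 76.9 CPM in aged CA against 19.2 CPM in aged sham and at 61.1 CPM in young CA against 4.63 CPM in young sham. Anxa5, which coats exposed phosphatidylserine, was 3.53-fold higher in young CA (3.31 to 3.78). Genes of digestion and lipid efflux were higher on balance too, 9 of 12 at each age, with medians of 0.49 in aged and 0.29 in young mice. Of the receptors, 4 of 9 were above 0 at each age, near the share of all genes, and so were 4 of 9 genes of the engulfment machinery. Receptor shedding and signalling had 4 of 6 above 0 in aged and 3 of 6 in young mice. Phosphatidylserine exposure and do-not-eat-me signals had 2 of 6 and 1 of 6.

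The largest ratio of the list was that of Cd300lf, a receptor that binds phosphatidylserine. It stood at 346 CPM in aged CA against 6.86 CPM in aged sham, a ratio of 50.5 (44.3 to 57.8), and at 163 CPM in young CA against 2.64 CPM in young sham, a ratio of 62.0 (53.3 to 72.5). T cells held 21.2 CPM of Cd300lf in aged CA (13.3 to 32.1), 1.49 CPM in aged sham (0.180 to 5.37) and no UMI in young CA and young sham, where the upper bounds were 19.1 and 9.21 CPM. The young sham level therefore cannot be told from background, and the folds rest on low sham levels. Socs3, a feedback inhibitor of cytokine signalling that TAM receptors can induce, was 9.73-fold higher in aged CA (9.09 to 10.4) and 6.84-fold higher in young CA (6.40 to 7.33). Ucp2, a mitochondrial protein that helps phagocytes go on engulfing, was 2.33-fold higher in aged CA. Of the receptors 2 were lower in aged CA than in aged sham. Itgb5, the integrin chain that pairs with alpha-v, was 2.25 times lower and Cd300a, an inhibitory receptor for phosphatidylserine, 2.14 times lower.

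By age fewer genes were called, in the list as among all genes. In aged sham against young sham 2 of 47 listed genes (4.26%) were higher, beside 2.47% of all eligible genes, Lgals3 with 19.2 CPM against 4.63 CPM and Ptk2, focal adhesion kinase, with 34.3 CPM against 14.9 CPM. Of the 48 genes eligible in aged CA against young CA, 3 (6.25%, beside 1.79% of all) were higher, Socs3 2.60-fold, Cd300lf 2.12-fold and Ptk2 2.02-fold, and 1 (2.08%, beside 2.57% of all) lower, Itgb5. Neuronal markers in microglia summed to 393 CPM in aged sham against 214 CPM in young sham, and to 115 CPM in aged CA against 107 CPM in young CA. Monocyte markers summed to 52.3 CPM in aged sham against 21.3 CPM in young sham microglia, and neutrophil markers to 1179 CPM against 529 CPM. T cells held more Lgals3 than microglia in the aged libraries, 151 CPM in aged CA and 92.9 CPM in aged sham. They held 20.7 CPM in young CA, and 7.49 CPM in young sham (1.55 to 21.9), from 3 UMIs. The young sham interval covered the 4.63 CPM of young sham microglia, which is the base of the Lgals3 comparisons against that library. The part of these in the Ptk2 and Lgals3 values was not tested.

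**Figure D5:**
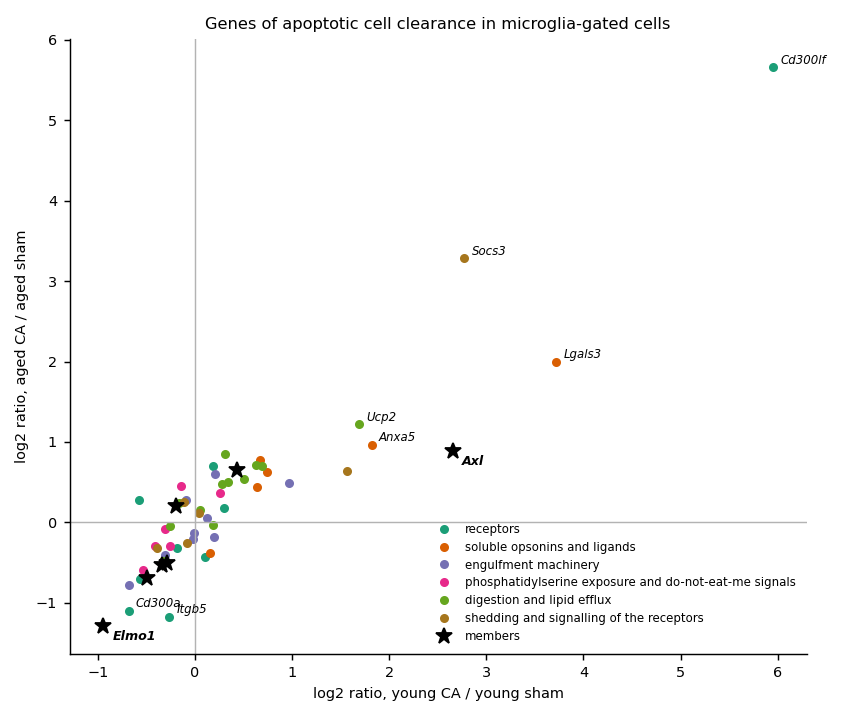
Log2 ratios in microglia-gated cells of young CA over young sham (x axis) and aged CA over aged sham (y axis) for the 48 listed clearance genes above the limit on low values, coloured by role, with the 7 members as stars. Cd300lf, Socs3 and Lgals3 lie furthest up on both axes, Axl lies far to the right but under 1 on the y axis, and Elmo1 lies at the lower left.

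The genes most like each member were taken by Pearson r of log2(CPM + 1) over 25 points, each a class in a library, among 14159 genes. These points share libraries and depth, and r describes them only. Nearest to Axl were Ms4a6d (0.91), Ctsb (0.89) and Tmem37 (0.88), to Mertk Adap2 (0.98), C1qb (0.97) and C1qc (0.97), and to Timd4 Clec10a (0.95), Cd209f (0.94) and Folr2 (0.92). Folr2 and Clec10a are themselves gate markers, of border-associated macrophages and of dendritic cells. Nearest to Gas6 were Rmdn1 (0.90), Zfp791 (0.88) and Gapvd1 (0.87), to Pros1 Abhd12 (0.93), Abca9 (0.90) and Zfp90 (0.90), and to Mfge8 Rnf219 (0.83), Akt1s1 (0.81) and Dhx34 (0.80). Nearest to Dock2 were Arhgap45 (0.98), Ikzf1 (0.98) and Pik3cd (0.97). Nearest to Elmo1 were Gm47664 (0.95), Gm13293 (0.86) and Trpc4ap (0.84), and Gm47664 lies inside Elmo1 on the same strand.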

How the data were processed

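The deposited tables give raw UMI counts for each gene in each barcode. Cell Ranger 7.1.0 and mm10 are named in the submitters' processing notes, and annotation, intron and cell-calling settings are not given in the sources used here. Everything else was computed from these counts. Barcodes with at least 500 UMIs, 200 genes and at most 10% mitochondrial UMIs were kept. A cell took the class with the highest share of its markers seen (14 lists), with at least 3 markers and no other class above 0.667 of that share; others stayed mixed or ungated. No doublet caller was run; mixed barcodes were left out of the class values. The UMIs of a class were added up within a library and scaled to CPM, with exact Poisson intervals, exact conditional intervals for ratios and Clopper-Pearson intervals for shares. Classes of at least 20 cells were compared. PCR duplicates are merged in UMIs, but intervals cover counting error only. The ratio and gate code was tested on simulated data. Promoter sequences came from RefSeq and positions from GENCODE. The members, the clearance list and the marker lists were chosen with earlier results of these data known. The genes named were the 8 members, up to 4 higher and 4 lower of the called clearance genes in each microglial comparison, and the 3 nearest genes by r. The 18 planned and 2 added alternatives are given at the end. Tools were Python 3.11.15, numpy 2.4.6, scipy 1.17.1, pandas 2.3.3 and edgeR 4.0.16 (TMM factors only).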

Additional observations from a re-analysis of the deposited data

Results flagged for a closer look

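With 1 library a group, the following differences between groups were not tested. Gas6 in microglia had a CA ratio of 1.15 in aged mice and 0.872 in young mice, opposite directions of a small change, and an age ratio of 1.15 among CA and 0.866 among sham libraries, which are the same 4 values read the other way. Axl in microglia had an age ratio of 0.657 among CA and 2.24 among sham libraries. It thus stood lower in aged than in young microglia after CA and higher after sham. Young sham microglia lay at the level of T cells of that library, whose neurons had no Axl UMI. Mertk in neurons, a class that should hold little of it, had an age ratio of 0.593 among CA libraries, at 15.4 CPM in aged CA against 26.0 CPM in young CA, and of 1.90 among sham libraries, at 14.4 CPM in aged sham against 7.58 CPM in young sham, each below the level in T cells of the same library.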

How the results depend on the processing

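The 28 microglial member ratios kept their sign in all 532 comparisons with 19 alternatives, and 26 kept their side of 2-fold under each. These alternatives include no low-value filter and a mean of 50 CPM, which change only which genes are eligible. Agreement under those settings was fixed in advance. Of the 28, 1 moved by over 1.5 times, Axl in young CA against young sham, which was 3.16 with a pseudocount of 10 CPM. Both exceptions on the 2-fold side were Axl too. Axl in aged CA against aged sham passed 2-fold under whole-profile classes (2.38), TMM factors (2.04), without the 5% deepest cells (2.03) and without cells holding a macrophage or monocyte marker (2.46), each giving 1 member higher instead of 0. In aged sham against young sham it was 1.504 with a pseudocount of 10 CPM, and 0 members instead of 1 were higher under that setting, a mean of 50 CPM, whole-profile classes, thinning, without the deepest cells and without the marked cells. In those where its ratio stayed above 2, it missed a limit on low values. In young CA against young sham 2 members were higher with no filter and 0 at 50 CPM, and in aged CA against young CA 1 was lower with no filter.

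Counts over all genes moved with the filter. In aged CA against aged sham, 535 higher and 743 lower genes became 1846 and 6442 with no filter, 236 and 262 at 50 CPM and 321 and 435 with the pseudocount. In young CA against young sham, 504 and 229 became 1954 and 4466, then 240 and 72, and the lower genes 105 with the pseudocount. In aged CA against young CA, 162 and 233 became 4031 and 1736, then 59 and 65, then 81 and 101. In aged sham against young sham, 228 and 15 became 5003 and 718, then 35 and 3, then 129 and 3, and 351 and 9 under the top class rule. There the higher genes were 110 in cells of at least 5000 UMIs, and the lower genes 31 by the mean over cells and 32 after thinning.

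On the log2 scale Axl in border-associated macrophages, aged CA against young CA, changed sign to -0.26 under whole-profile classes, and Pros1 in monocytes to 0.98 in cells with under 2 neutrophil markers, on 4 against 17 UMIs. Ratios within 2-fold changed sign as well. For aged CA against young CA, Mertk in monocytes ran from -0.52 to 1.88 and Mertk in macrophages went from 0.47 to -0.06. For young CA against young sham macrophages, Axl went from 0.34 to -0.09. Mertk there went from -0.21 to 0.54 and Dock2 from 0.04 to -0.19 under whole-profile classes. The causes were not tested. The setting of under 2 neutrophil markers, and that without marked microglia, were chosen after seeing the data. No paired analysis was possible because each group was 1 library.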
